A study of Rattus norvegicus with 6 samples.

Results

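Transcripts of glycolysis and of lactate formation were followed in the substantia nigra pars compacta of rats given the pesticide rotenone. The genes, listed by name with the earlier results of these arrays known, were Hk1, Pfkm, Aldoa, Aldoc, Gapdh, Pgk1, Eno2, Pkm, Ldha and Ldhb. A probe was taken when its GenBank accession, without version, was a rat RefSeq transcript of one of them. This gave 11 of the 33849 probes of the array, for 9 of the 10 genes: 2 probes each for Pfkm and Ldhb, 1 for each of the other 7, and no match for Eno2. The animals were male Sprague Dawley rats, 5 months old, and every rat carried an osmotic minipump under the skin for 28 days. In 3 rats the pump delivered rotenone at 0.5 mg/kg per day. In the other 3 it held the solvent alone, dimethylsulfoxide and polyethylene glycol with the surfactant Pluronic F-127, which the rotenone rats received too. RNA of laser-captured tissue was hybridised to 1 one-colour array per rat. The captured tissue is a mixture of neurons, glia and vessels, so that fewer cells of a type and less RNA per cell cannot be told apart.

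Glycolysis converts glucose to pyruvate in the cytosol and yields a little ATP without oxygen. Lactate dehydrogenase turns pyruvate into lactate and thereby renews the NAD+ that glycolysis consumes. Rotenone blocks complex I, the entry of NADH electrons into the respiratory chain, and cells whose respiration is blocked can make more of their ATP by glycolysis. In brain, astrocytes are held to be the more glycolytic cells and neurons the more oxidative ones. The comparison asked whether transcripts of these enzymes stood higher after rotenone.

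None of the 8 measured enzyme genes was called higher or lower with rotenone, and the mean of each was lower, not higher. Among them Gapdh, the widely used reference transcript, was 0.84-fold the solvent level, Aldoa 0.60-fold and Pgk1 0.66-fold. Pkm and the second probe of Pfkm were above background on fewer than 3 of the 6 arrays and were not tested. The count was 0 of 8 genes at an adjusted p below 0.05 (limma's moderated test, Benjamini-Hochberg), beside 0 of 16708 probes (0%) in all. At an unadjusted p below 0.05 it was 0 of 8, beside 825 of all tested probes (4.94%), 332 of them higher (1.99%) and 493 lower (2.95%). The smallest unadjusted p of an enzyme was 0.093, for Aldoa, and the adjusted p of the 8 genes lay between 0.895 and 0.918. No enzyme had groups that did not overlap, where 9.97% of all tested probes did, 4.89% lower and 5.08% higher with rotenone. The median log2 difference, rotenone minus solvent, was -0.29 over the 8 genes and 0.01 over all tested probes, whose lower and upper quartiles were -0.15 and 0.15. Of all tested probes 48.4% were lower in mean. For the 8 genes the 95% interval of the difference ended, on its upper side, between 1.08-fold for Gapdh and 1.18-fold for Pfkm. Without rotenone rat 16, whose array stood apart, those ends lay between 1.14-fold for Gapdh and 1.40-fold for Aldoa, and the median difference was -0.15. In that comparison all 8 genes were still lower in mean, as were 49.5% of all tested probes, and 0 of 8 passed an unadjusted p below 0.05, as 3.37% of all tested probes did. These values are log2 of intensity after an offset of 50, which draws differences of dim probes towards 0. With no offset the upper ends were between 0.28 and 0.43 on the log2 scale. On the intensities as scaled by the authors they were between 0.40 for Ldha and 0.61 for Ldhb.

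**Figure D1:**
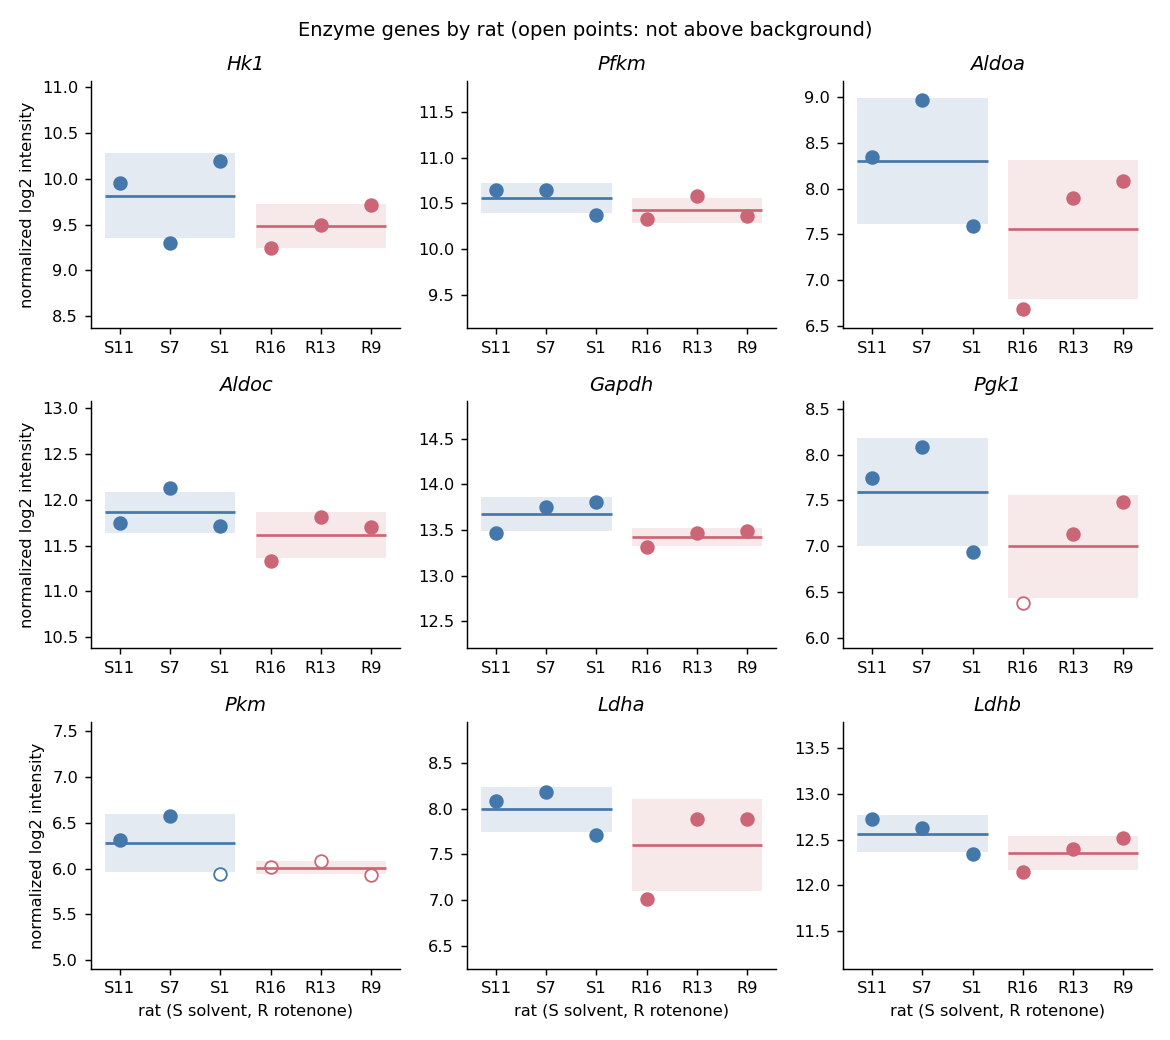
Normalized log2 intensity of each enzyme gene (brightest probe) in each rat, S for solvent and R for rotenone; lines are group means, bands 1 SD (n = 3), and open points were not above background. The groups overlap in every panel, and rotenone rat 16 is the lowest point for 8 of the 9 genes.

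Hexokinase 1 (Hk1) traps glucose in the cell as glucose 6-phosphate and is the main hexokinase of brain. Its probe GE19930 read 9.96, 9.30 and 10.19 in solvent rats 11, 7 and 1. In rotenone rats 16, 13 and 9 it read 9.25, 9.49 and 9.72. The rotenone values lay within or just under the solvent range, and solvent rat 7 was nearly as low as rotenone rat 16. The group means were 9.82 ± 0.46 (SD, n = 3) and 9.49 ± 0.24 (SD, n = 3), a difference of -0.33 ± 0.24 (SE; 95% interval -0.87 to 0.20; limma adjusted p 0.895). Without solvent rat 7 the difference was -0.59, where limma gave an unadjusted p of 0.0217 (adjusted 1.00). Leaving out solvent rat 1 instead gave -0.15.

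Phosphofructokinase of the muscle type (Pfkm) catalyses the committed step of glycolysis. Probe GE1241381 read 10.65, 10.65 and 10.37 with solvent (rats 11, 7 and 1) and 10.32, 10.58 and 10.37 with rotenone (rats 16, 13 and 9). The groups covered nearly the same range. Pfkm had the smallest difference of the 8 genes, -0.13 ± 0.17 (SE; interval -0.50 to 0.24; limma adjusted p 0.918). It was -0.08 without rotenone rat 16 and -0.02 on the authors' scaled intensities. The other Pfkm probe, GE21945, carries the same accession but was at background on every array (5.84 to 5.95), so it gave no second reading.

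Aldolase cleaves fructose 1,6-bisphosphate into 2 three-carbon sugars, and brain expresses the A form broadly and the C form most in astrocytes and some neurons. Aldoa, read by probe GE1233936, was at 8.35, 8.97 and 7.59 in solvent rats 11, 7 and 1 and at 6.68, 7.90 and 8.09 in rotenone rats 16, 13 and 9. As background-subtracted signal these were 273, 481 and 152 units with solvent and 33.8, 190 and 209 with rotenone. Rotenone rats 13 and 9 stood between the solvent rats, and only rat 16 lay below all of them. The solvent rats alone spanned 1.38 on the log2 scale, more than the group difference of -0.75 ± 0.40 (SE; interval -1.65 to 0.15; limma adjusted p 0.895). Without rotenone rat 16 the difference was -0.31, and without solvent rat 1, the lowest of its group, -1.10 (unadjusted p 0.0189, adjusted p 0.826).

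Aldoc was much steadier between rats. Its probe GE19784 read 11.74, 12.12 and 11.72 with solvent (rats 11, 7 and 1) and 11.33, 11.82 and 11.71 with rotenone (rats 16, 13 and 9). Rat 13 lay within the solvent range, rat 9 at its lower edge and rat 16 below it. The difference was -0.25 ± 0.19 (SE; interval -0.68 to 0.18; limma adjusted p 0.897), -0.10 without rotenone rat 16 and -0.02 on the authors' own scaled intensities. Of 9 tested astrocyte markers 5 were lower in mean and 4 higher (median -0.15), but without rotenone rat 16 only 2 were lower (median 0.19). The log2 of the list's summed intensity was 13.40 to 13.56 with solvent and 13.50 to 13.77 with rotenone. Such sums are taken with the offset removed and include genes with a probe that were not tested. Aqp4, Slc1a2 and Ntsr2 of that list were not above background on any array. The part of astrocyte RNA in the Aldoc values was not tested.

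Glyceraldehyde 3-phosphate dehydrogenase (Gapdh) makes the NADH of glycolysis. Probe GE22265 read 13.47, 13.76 and 13.80 in solvent rats 11, 7 and 1, and 13.31, 13.47 and 13.49 in rotenone rats 16, 13 and 9. Solvent rats 7 and 1 were above all 3 rotenone rats, while solvent rat 11 was at the level of rotenone rats 13 and 9. Group means were 13.68 ± 0.18 (SD, n = 3) and 13.42 ± 0.10 (SD, n = 3), and the difference was -0.25 ± 0.17 (SE; interval -0.62 to 0.12; limma adjusted p 0.895). It was -0.05 on the authors' scaled intensities. Retained pseudogene copies of Gapdh are common in rodents, and whether this probe also reads them was not tested.

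Phosphoglycerate kinase 1 (Pgk1) makes the first ATP of the pathway. Probe GE19688 was at 7.74, 8.09 and 6.94 in solvent rats 11, 7 and 1 and at 6.38, 7.13 and 7.48 in rotenone rats 16, 13 and 9. In background-subtracted signal the solvent rats gave 163, 234 and 74.3 units and the rotenone rats 19.3, 89.2 and 119. Rat 16 was not above background here, and the other rotenone rats lay inside the solvent range. The difference of -0.59 ± 0.33 (SE; interval -1.33 to 0.15; limma adjusted p 0.895) was smaller than the solvent range of 1.15. It was -0.28 without rotenone rat 16 and -0.92 without solvent rat 1, where the unadjusted p was 0.0143 and the adjusted p 0.826.

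Pyruvate kinase of the muscle type (Pkm) makes pyruvate and the last ATP. Its only probe, GE1298142, was dim in all rats. It read 6.31, 6.58 and 5.94 in solvent rats 11, 7 and 1, the first pair above background, and 6.02, 6.08 and 5.93 in rotenone rats 16, 13 and 9, none above background. On these values, which carry the offset, the solvent mean was 1.18-fold the rotenone mean. This ratio sets the solvent mean of 6.28 against a rotenone mean of 6.04. In the latter a reading under the dimmest detected probe of its array is raised to that probe's level. The ratio is no lower bound on the fold and leaves out the spread among rats. Solvent rat 1, not above background either, was as low as the rotenone rats.

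Lactate dehydrogenase is a tetramer of A and B subunits. The A subunit, from Ldha, is linked to the making of lactate and is the one prominent in glycolytic cells. The B subunit, from Ldhb, is linked to the use of lactate and is prominent in neurons. Ldha is also a classical target of the hypoxia-inducible factor HIF-1, which binds the core letters ACGTG or GCGTG, as several other proteins do. Only ACGTG was searched. The 250 bases before the transcript start of Ldha and Ldhb are shown because their windows differ in ACGTG, together with those of Gapdh. They are in lower case with each ACGTG on either strand in capitals. The sequences are from RefSeq on assembly GRCr8, for Ldha at chr1:106507842-106508091 on the plus strand, for Ldhb at chr4:177177409-177177658 on the minus strand and for Gapdh at chr4:159652468-159652717 on the minus strand, each written 5′ to 3′ along its gene.
Ldha: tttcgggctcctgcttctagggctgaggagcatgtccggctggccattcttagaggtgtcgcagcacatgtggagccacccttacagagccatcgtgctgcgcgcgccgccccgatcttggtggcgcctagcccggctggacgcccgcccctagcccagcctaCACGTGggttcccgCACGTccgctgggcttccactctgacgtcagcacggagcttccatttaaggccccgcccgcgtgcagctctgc
Ldhb: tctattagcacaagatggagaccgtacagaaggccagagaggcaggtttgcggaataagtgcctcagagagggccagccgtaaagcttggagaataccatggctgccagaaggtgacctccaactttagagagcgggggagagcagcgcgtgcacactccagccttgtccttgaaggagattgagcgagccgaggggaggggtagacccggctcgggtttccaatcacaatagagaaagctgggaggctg
Gapdh: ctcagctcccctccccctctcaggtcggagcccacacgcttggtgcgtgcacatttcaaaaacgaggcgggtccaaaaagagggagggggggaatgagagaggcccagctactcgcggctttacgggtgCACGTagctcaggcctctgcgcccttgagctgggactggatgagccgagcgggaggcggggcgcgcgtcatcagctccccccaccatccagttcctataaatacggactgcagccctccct
Ldha had 3 matches, starting 87, 86 and 73 bases before the transcript start, the first pair being both strands of a single CACGTG. Ldhb had 0 and Gapdh had 1, starting 121 bases before. Promoter windows were at hand for 9 of the 10 genes (Pgk1 had none), and for 7 of the 9, all but Ldhb and Pkm, at least 1 window held ACGTG. Some genes have several windows, and by window it was 7 of 12, where 16.6% of 33469 windows of all genes held it. A match is a run of letters and not a measured binding site. GCGTG was not counted, and each printed window also holds it.

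Ldha, by probe GE21808, was at 8.08, 8.18 and 7.71 in solvent rats 11, 7 and 1 and at 7.02, 7.89 and 7.89 in rotenone rats 16, 13 and 9. Rats 13 and 9 were within the solvent range and rat 16 was below it, with 54.6 units of background-subtracted signal against 172 to 255 in the solvent rats. The difference was -0.39 ± 0.25 (SE; interval -0.95 to 0.17; limma adjusted p 0.895), and -0.10 without rotenone rat 16. Ldhb gave a reading from each of its probes. The brighter, GE19848, read 12.73, 12.63 and 12.34 with solvent (rats 11, 7 and 1) and 12.15, 12.40 and 12.52 with rotenone (rats 16, 13 and 9). GE21898 read 10.71, 10.63 and 10.16 with solvent and 9.82, 10.33 and 10.34 with rotenone, in the same order within each group. On both probes rat 16 was lowest and the other rotenone rats lay inside the solvent range. Their differences were -0.21 ± 0.18 (SE; interval -0.61 to 0.19; limma adjusted p 0.900) and -0.33 ± 0.21 (SE; interval -0.81 to 0.14; limma adjusted p 0.895). Without rotenone rat 16 they were -0.11 and -0.16. On the authors' scaled intensities GE19848 differed by 0.01 and GE21898 by -0.24.

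The balance of paired isozymes was compared as a difference of differences within each array. The Ldha minus Ldhb value, set against its solvent mean, was -0.07, 0.13 and -0.06 in solvent rats 11, 7 and 1 and -0.56, 0.07 and -0.06 in rotenone rats 16, 13 and 9. The change of Ldha was thus 0.18 below that of Ldhb in the mean (-0.18; exact permutation test, two-sided, p = 0.5, where 3 against 3 cannot go below 0.1). On the authors' scaled intensities the value was -0.59. Without rotenone rat 16 it was 0.00361, and the other rotenone rats lay within the solvent range. For Aldoc minus Aldoa the solvent rats gave -0.16, -0.41 and 0.57 and the rotenone rats 1.09, 0.36 and 0.06. Rat 16 was the highest, and the other rotenone values lay inside the solvent range. The mean difference was 0.50 (exact permutation test, two-sided, p = 0.3), 1.05 on the authors' scaled intensities and 0.21 without rotenone rat 16.

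**Figure D2:**
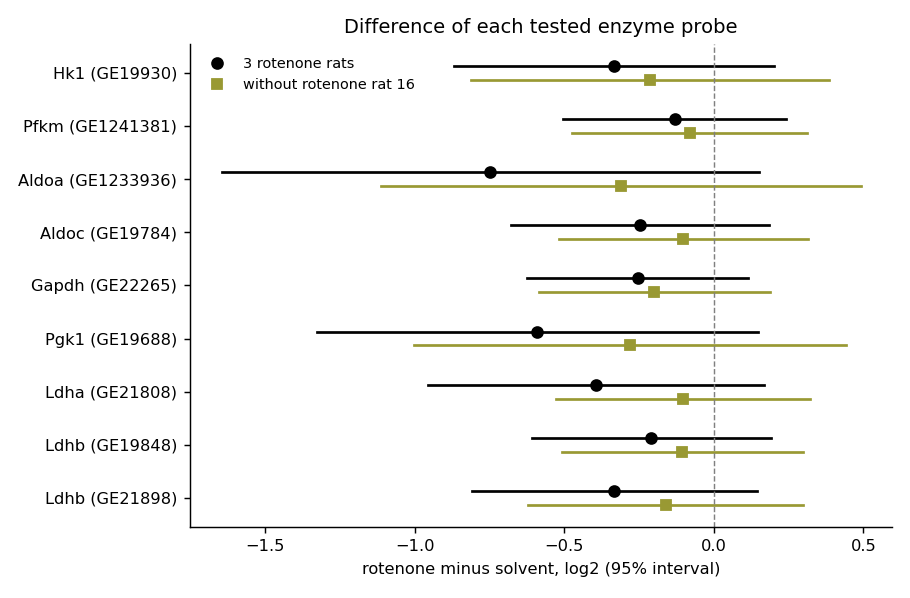
Rotenone minus solvent difference of each tested enzyme probe on the log2 scale with its 95% interval, with all 3 rotenone rats (black) and without rotenone rat 16 (olive). All 9 points lie below 0 in both fits and every interval spans 0.

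Rotenone rat 16 had the lowest enzyme values of the 6 rats, and the other rotenone rats were closer to the solvent mean. The median deviation of the 8 genes from the solvent mean was -0.55 in that rat (range -1.62 to -0.23), -0.19 in rat 13 (-0.45 to 0.03) and -0.13 in rat 9 (-0.22 to -0.04). In the solvent rats, which are part of that mean, it was 0.09, 0.14 and -0.21 for rats 11, 7 and 1. All 8 genes were below the solvent mean in rats 16 and 9, and 7 of 8 in rat 13, while 49.3% of all tested probes were below it in rat 16. Each of the 8 had its lowest value in rat 16, where 26.2% of all tested probes had theirs, and 29.1% of the 7563 probes at least as bright as the dimmest enzyme. None had its highest value in a rotenone rat. Of all tested probes 29.4%, 13.6% and 10.6% had theirs in rotenone rats 16, 13 and 9. The highest enzyme value came 4 times from solvent rat 7 and 2 times each from solvent rats 11 and 1. The array of rat 16 had the lowest median net signal, 11.7 against 13.9 to 16.6, and 44.2% of its probes were above background, against 48.6% to 51.5%. Across probes, it correlated with the remaining arrays at 0.931 in the mean, where those had 0.956 to 0.964. The file of solvent rat 7 carries another day in its header than the other 5. Without that rat the median difference of the enzymes was -0.26.

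**Figure D3:**
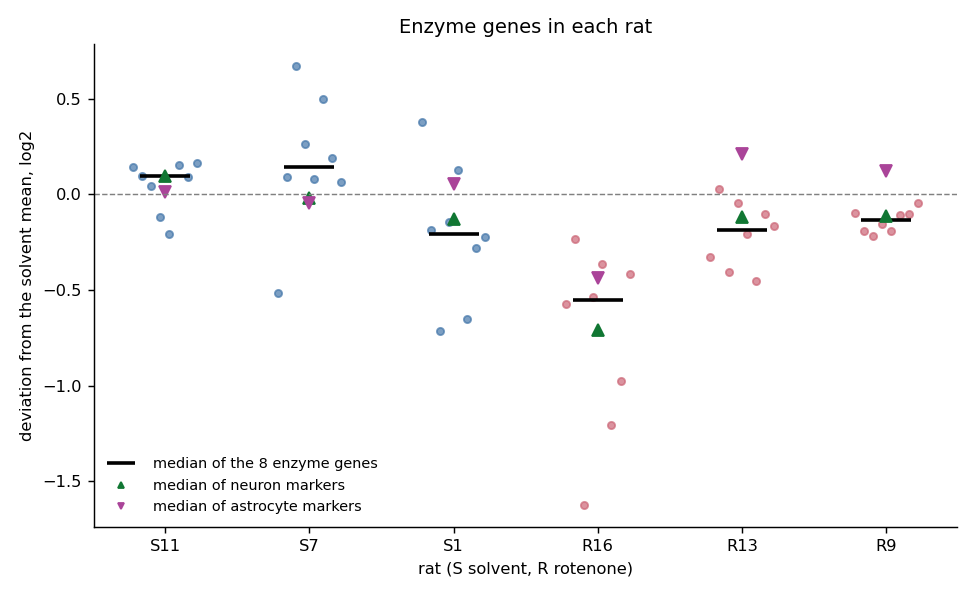
Deviation of each of the 8 tested enzyme genes (points, brightest probe) from its solvent mean in each rat, on the log2 scale, with the median of the enzymes (bar) and of neuron and astrocyte marker genes (triangles). The enzyme median is -0.55 in rotenone rat 16 and within 0.21 of 0 in the other 5 rats.

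The enzymes differed in how much they varied between rats of a group. Aldoa had a within-group SD of 0.73 and Pgk1 of 0.58, at the 99.5th and 98.1th percentile of all tested probes, whose median was 0.23. Ldha (0.40) and Hk1 (0.37) were also above that median. Ldhb (0.20), Pfkm (0.15) and Gapdh (0.15) were below it, and Aldoc (0.24) was close to it. Aldoa, Pgk1, Ldha and the steadier Aldoc shared an order in the solvent rats, with rat 7 highest, rat 11 next and rat 1 lowest. The untested Pkm had it too, while Hk1 had the opposite order, with rat 1 highest and rat 7 lowest.

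The other genes of the pathway, from lists drawn up with earlier results of these arrays known, held no called gene either. Of 20 further glycolytic enzymes 11 had a probe and 7 were tested, 5 lower in mean and 2 higher, with a median of -0.07 (-0.02 without rotenone rat 16). Gapdhs, the sperm form of the dehydrogenase, had the lowest p of the list. It read 7.62 to 7.83 with solvent and 7.22 to 7.55 with rotenone, so that its groups did not overlap, and differed by -0.38 ± 0.17 (SE; unadjusted p 0.0442, adjusted p 0.895 in limma). In this list 1 of 7 had an unadjusted p below 0.05, and 2 had groups that did not overlap. The shares over all tested probes were 4.94% and 9.97%. Pgam1, the mutase between Pgk1 and enolase, was slightly higher in mean (0.16 ± 0.17, SE). Hk2 and Hk3, the inducible and the leukocyte hexokinase, were not above background on any array.

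Glucose and lactate carriers and regulators of glycolysis gave 5 tested genes, 3 lower and 2 higher, with a median of -0.05 (0.02 and 2 lower without rotenone rat 16). The lowest p values belonged to Pfkfb2, which makes the phosphofructokinase activator fructose 2,6-bisphosphate (-0.22 ± 0.27, SE), and to the lactate exporter Slc16a3 (-0.11 ± 0.16, SE). The blood-brain barrier glucose carrier Slc2a1 differed by -0.05, and by 0.02 without rotenone rat 16. Of the genes that decide the fate of pyruvate in mitochondria 7 were tested, 2 lower and 5 higher (median 0.04). Mpc1, a subunit of the mitochondrial pyruvate carrier, differed by -0.74 ± 0.48 (SE). Rotenone rat 16, without which the value was -0.12, read 7.67 against 9.41 and 9.66 in the other rotenone rats. Pdk2, a kinase that switches off pyruvate dehydrogenase, differed by 0.25 ± 0.19 (SE). Among shuttles that carry NADH electrons into mitochondria 2 genes were tested, Mdh2 at -0.46 ± 0.32 (SE; -0.03 without rat 16) and Got2 at 0.04 ± 0.17 (SE). Genes responsive to hypoxia gave 6 tested, 2 lower and 4 higher (median 0.08). Hif1a, the regulated subunit of HIF-1, was at 9.10, 8.10 and 8.41 in solvent rats 11, 7 and 1 and at 9.05, 9.08 and 8.86 in rotenone rats 16, 13 and 9. Solvent rat 11 was as high as the rotenone rats, and the difference was 0.46 ± 0.24 (SE; unadjusted p 0.0866, adjusted p 0.895 in limma). Egln3, a hydroxylase that marks HIF for breakdown, differed by 0.15 ± 0.16 (SE).

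Neuron markers were lower in mean beside the enzymes. All 8 tested of 9 with a probe were lower, with a median of -0.28 (-0.11 and 6 of 8 without rotenone rat 16). An unadjusted p below 0.05 in limma was found for 3 of the 8. These were Ina (-0.78, p 0.0219), Gap43 (-0.50, p 0.0236) and Syn2 (-0.40, p 0.0378), each with an adjusted p of 0.895. The groups did not overlap for 2, Gap43 and Syn2. The shares over all tested probes were 4.94% and 9.97%. Snap25 was not above background on any array. The log2 of the summed intensity of all 9 was 12.62 to 12.85 with solvent and 11.79 to 12.55 with rotenone, lowest in rat 16. Oligodendrocyte markers had a median of -0.29, 6 of 8 lower (-0.18 and 5 of 8 without rotenone rat 16), with summed levels of 12.12 to 12.72 and 11.99 to 12.38. Among them Mal alone had an unadjusted p below 0.05 (-0.66, p 0.0366, adjusted p 0.895 in limma). The part of neuron and oligodendrocyte RNA in the enzyme values was not tested. Of the markers that define the captured region, 10 dopamine neuron genes were tested, 6 lower and 4 higher, with a median of -0.18 (-0.17 and 9 of 10 lower without rotenone rat 16). Sncg (-0.67, unadjusted p 0.0169, adjusted p 0.895 in limma) and Nr4a2 (-0.79, unadjusted p 0.0343, adjusted p 0.895 in limma) had an unadjusted p below 0.05. The groups did not overlap for Sncg and Slc6a3 (-0.20). Each of these counts is 2 of 10, beside 4.94% and 9.97% of all tested probes. The log2 of the summed intensity, to which bright probes such as those of Th and Ddc add most, was 14.49 to 14.91 with solvent and 14.43 to 14.88 with rotenone. GABA neuron markers summed to 10.51 to 10.999 and 10.56 to 11.02, with 4 of 5 lower in mean (median -0.06). Of these Gad2, above background on 3 of the 6 arrays, differed by -0.41 (unadjusted p 0.0401, adjusted p 0.895 in limma). Its groups did not overlap. Markers of microglia were at 10.73 to 10.98 and 10.66 to 10.92, and those of endothelium and pericytes at 8.83 to 9.004 and 8.97 to 9.25. Blood cell markers summed to 7.14 to 7.93 and 7.21 to 8.76. Of the choroid plexus, ependyma and meninges list 1 gene was tested, Col1a2, a fibroblast collagen, at 0.21 (-0.05 without rotenone rat 16). The list summed to 7.97 to 8.35 with solvent and 7.99 to 8.94 with rotenone, and Ttr, the defining gene of choroid plexus, was not above background on any array.

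A search for genes with a like pattern used the mean deviation of the 9 enzyme genes from their own 6-array means, which was 0.22, 0.36 and -0.05 in solvent rats 11, 7 and 1 and -0.51, -0.03 and 0.01 in rotenone rats 16, 13 and 9. Of 1706 other named genes above background on all 6 arrays, the 5 with the smallest root mean square distance from it, over 6 arrays, were Map2k2 (0.063), Psmb3 (0.068), Ap2s1 (0.071), Pex14 (0.081) and Hagh (0.088), where the median gene was at 0.33. They encode a kinase of the MAP kinase cascade, a proteasome subunit, an adaptor subunit of clathrin coats, a peroxisomal import protein and glyoxalase 2, which detoxifies a by-product of glycolysis. All 5 were lowest in rat 16, between -0.45 and -0.65, which follows from the choice, since the profile they were matched to is lowest there. Among the enzymes themselves, which are part of that mean, Aldoc (0.11), Ldhb (0.12) and Ldha (0.13) lay closest to it. Aldoa (0.44) and Hk1 (0.39) lay farthest from it.

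**Figure D4:**
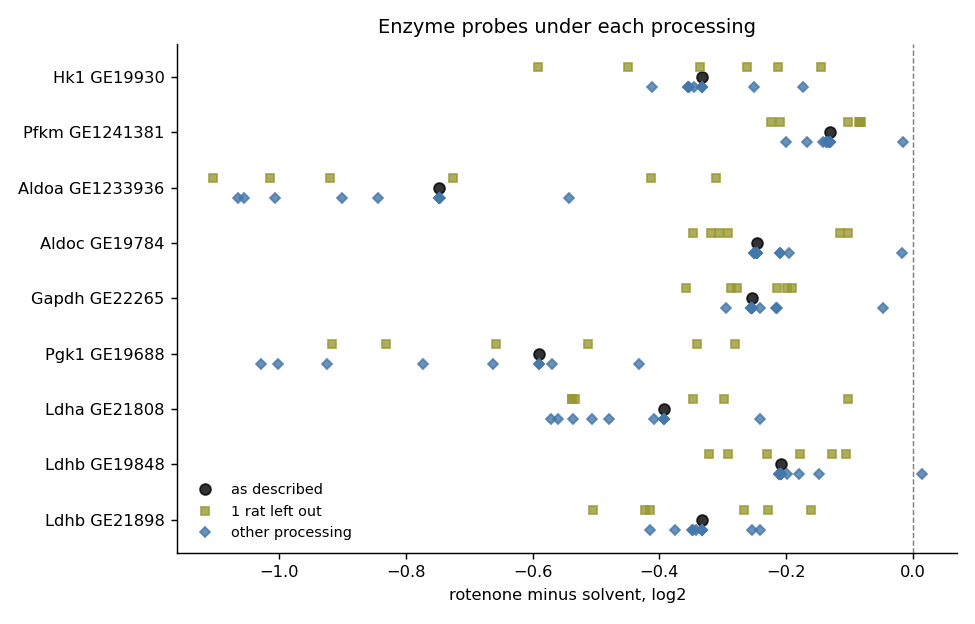
Rotenone minus solvent difference of each tested enzyme probe as described (black), with 1 rat left out (squares) and under other processing of the same scanner files (diamonds), on the log2 scale. Points lie below 0 except Ldhb probe GE19848 on the authors' scaled intensities, at 0.01.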

How the data were processed

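Total RNA (2 µg per rat) was amplified and biotin-labelled, per the labels' protocols. The deposited files give, per spot, the linear intensity of spot mean and background median, and the authors' scaled intensity. In the value table the column of solvent rat 7 equals its scanner file for 0.898% of probes (100% in the other 5), so scanner files were used. Background was corrected with normexp (offset 50) and log2 values were quantile-normalized. Every spot but controls was kept, because the scanner's irregular mark covers 29.4% to 36.3% of probes. That mark or another quality flag was on 8 of the 11 enzyme probes on 5 or 6 arrays.

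Tested were 16708 probes that at least 3 of the 6 arrays read without a near-background or mask flag (limma 3.58.1, R 4.3.3, two-sided, Benjamini-Hochberg over all). The steps were also run on simulated data, with noise drawn independently for each spot and no array set apart. That run does not show what could be detected in these 6 arrays. Each gene is represented by its brightest probe. Named are all enzymes, the 2 genes of lowest p of each list, those taken by likeness, and, after their values were seen, Pgam1, Hk2, Hk3, Slc2a1 and single marker genes; 1 result is not reported here. Symbols (4675 probes, 4013 genes) come from RefSeq's GRCr8 table. Members and lists were chosen with earlier results of these data known. Nothing says whether rats shared a litter or cage, and the number of arrays limits the precision.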

Additional observations from a re-analysis of the deposited data

How the results depend on the processing

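Over 19 alternatives no enzyme gene was called, and with marked spots left out Gapdh alone could be tested. The median difference of the enzymes stayed below 0 in 18 of them, from -0.37 (without rotenone rat 9) to -0.15 (on the authors' scaled intensities and without rotenone rat 16). The exception was the value table as deposited, in which 100% of the values of solvent rat 7 occur in its scanner file but 0.898% at the same probe. It gave a median of 1.04, and Aldoa 0.57, Hk1 1.51, Aldoc 2.70, Gapdh 3.18 and Ldhb 2.89 (GE19848) and 1.99 (GE21898) had the opposite sign there. On the authors' scaled intensities in the scanner files only Ldhb GE19848, among the tested enzyme probes, changed sign, to 0.0144. No other alternative than these, and for Ldha minus Ldhb than leaving out rotenone rat 16, turned the direction of a tested enzyme probe, of their median or of an isozyme pair. A changed filter on dim probes and a trend in the prior variance leave each probe's difference as it was by design. Array weights likewise leave the isozyme pairs unchanged. Such settings do not test the direction. With 1 rat left out, Ldha minus Ldhb lay between -0.31 and 0.00361. Under other processing of the scanner files it lay between -0.59 (authors' scaled intensities) and -0.18, and Aldoc minus Aldoa between 0.50 and 1.05 (authors' scaled intensities), with exact permutation p values of at least 0.3. With 1 rat left out, between 0 and 3 probes were called, 3 without solvent rat 1, none of them an enzyme. Unadjusted p values of Aldoa and Pgk1 were also below 0.05 without rotenone rat 9 (0.048 and 0.0445), as was that of Ldhb GE21898 without solvent rat 1 (0.0458, limma). Median scaling of the arrays left 0 probes called, and at an unadjusted p below 0.05 152 were then higher and 785 lower. The day in the file header sets solvent rat 7 alone apart, so a block on it is the same as leaving that rat out. With 3 rats per group and dim readings for Aldoa, Pgk1 and Ldha, small differences were not detectable. Larger ones, of -0.75 for Aldoa and -0.59 for Pgk1, were not called either (limma adjusted p 0.895 for each). No paired analysis was possible because the rat numbers are not shared between groups.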
